A study of Homo sapiens with 23 samples.

Results

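Collagen chain genes are described here across untreated melanoma cells and 7 drug-resistant clones grown from them. The members were all genes in the deposited expression table whose symbol is COL, a number, A and a number, 44 of the 35438 genes listed. By the type of collagen they build, 11 were fibrillar, 6 basement membrane, 9 network or beaded filament, 10 FACIT, 4 transmembrane and 4 multiplexin or other chains. The cells were WM989 A6-G3, an established human melanoma line derived from 1 cell, and poly(A) RNA was sequenced in 23 libraries. Untreated cells grew without drug (3 libraries). Clones 7, 8 and 9 were colonies that had grown out in vemurafenib, which inhibits mutant BRAF, and stayed in 1 µM of that drug (3 libraries each). Clones 10, 11, 12 and 13 arose and stayed in 250 nM dabrafenib, also a BRAF inhibitor, plus 2.5 nM trametinib, a MEK inhibitor (3 libraries each, 2 in clone 11). Each clone came from 1 colony, and no untreated library had seen drug, so resistance and the presence of drug cannot be told apart. Libraries of 1 group are called biological replicates in the labels, which do not say what separated them, so p-values may measure technical spread only.

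A collagen molecule is a triple helix of 3 alpha chains, and each chain has its own gene. Fibrillar collagens such as types I, III and V pack into the load-bearing fibrils of connective tissue, type IV forms the sheet of basement membranes, and type VI forms beaded filaments around cells. FACIT collagens lie on the surface of fibrils, multiplexins sit at basement membranes, and transmembrane collagens are anchored in the cell surface. In skin, fibroblasts are the main makers of fibrillar collagen, while melanocytes sit on a basement membrane rich in type IV.

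Levels are given as scaled TPM, the TPM of the table adjusted between libraries, a measure that takes transcript length into account and so can be set side by side between genes. Log2 fold changes are differences of log2(scaled TPM + 1), so changes of weakly expressed genes come out too small, and p-values are Benjamini-Hochberg adjusted values from limma over 15657 genes. A change is called where the adjusted p was under 0.05 and the absolute log2 fold change at least 1. The melanocyte identity of the line was checked against its markers. The summed level of 8 melanocyte markers was 12672 to 13147 in untreated libraries and 30.2 to 478 in clone libraries, and all 8 fell in the mean of the clones. Of 9 fibroblast markers, 6 rose, with sums of 53.5 to 64.0 in untreated and 290 to 968 in clone libraries. Markers of other lineages were not all near 0. The 6 endothelial markers summed to 0.597 to 0.802 in untreated libraries and at most 5.24 in the clones, with CDH5 at 0.0836 or less. The 6 immune markers summed to 159 to 164 in untreated and 140 to 751 in clone libraries, nearly all of it CD68, a lysosomal protein, with CD3E of T cells at 0.032 or less. The 6 keratinocyte markers summed to 1.02 to 1.16 in untreated libraries and reached 5.11 in clone 8. The 5 Schwann and neuronal markers in the table went down in sum, from 457 to 467 in untreated to 107 to 329 in clone libraries, while SNAP25, a synaptic protein among them, was 0.296 to 0.549 in untreated and 10.3 to 62 in clone libraries. The part of these markers in the collagen results was not tested. Some libraries stood apart from their group. Clone 10 replicate 1 had 14415 genes above 0 against 18671 to 24039 in the others, and its highest correlation with its own group was 0.944. Clone 10 replicate 3 was closer to a clone 12 library (r = 0.981) than to any of its own group (0.979 at most), and clone 13 replicate 3 was closer to clone 12 replicate 3 (0.984) than to any of its own (0.983 at most). Clone 8 replicate 3 had the lowest mean correlation of its group (0.964), as did clone 12 replicate 3 (0.981).

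Resistant clones carried far more collagen RNA than untreated cells, in every library. The 44 chains together made up 0.0186% ± 0.000959 (SD, n = 3) of all TPM in untreated cells. In the clones the share ran from 0.55% ± 0.00443 (SD, n = 3) in clone 10 to 1.32% ± 0.254 (SD, n = 2) in clone 11. The lowest clone library held 0.496% and the highest untreated library 0.0194%. In bulk RNA, a change in the number of cells of a kind and a change in RNA per cell cannot be told apart. Of the 44 chains, 32 reached 1 TPM in at least 2 libraries and were tested. When the average of the 7 clones was set against untreated cells, 19 chains rose and 4 fell, against 10.9% of all tested genes higher and 7.92% lower. Their median log2 fold change was 2.08, beside -0.01 over all genes tested. Of the 32, 14 were under 1 TPM in every untreated library and 2 under 1 TPM in every clone library, so these passed only through the side where they were high. Among the 16 chains that reached 1 TPM on both sides, 9 rose and 2 fell.

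By class, 6 of 8 tested fibrillar chains rose, as did both tested basement membrane chains, 5 of 9 network and beaded filament chains, 3 of 9 FACIT chains, 1 of 2 transmembrane chains and both tested multiplexins. Of the chains that rose, 10 had passed the filter only through the clones. They were COL1A2, COL3A1, COL5A1, COL4A1, COL4A2, COL6A3, COL6A6, COL8A1, COL12A1 and COL13A1. All 4 chains that fell were FACIT chains, and COL9A1 and COL20A1 among them had passed only through the untreated libraries. The counts by clone that follow include chains that passed through 1 side only. Taken clone by clone, each count is out of 32 chains, and brackets give the share of all tested genes called the same way. Clone 7 had 19 chains higher (11.1% of all genes), clone 8 had 21 (11.0%), clone 9 had 18 (11.5%) and clone 10 had 16 (11.8%). Clone 11 had 20 (11.5%), clone 12 had 17 (11.5%) and clone 13 had 18 (12.3%). Chains called lower numbered 3 for clone 7 (8.49% of all genes tested), 4 for clone 8 (9.30%), 3 for clone 9 (8.22%), 6 for clone 10 (10.6%), 3 for clone 11 (9.67%), 4 for clone 12 (8.02%) and 4 for clone 13 (8.34%). Apart from clone 10, these counts of lower chains lie near the background share. The clone 10 count includes COL9A1 and COL20A1, and also COL25A1 and COL27A1, which missed the call with TPM as deposited. With 0.1 in place of 1 added before the log, clone 9 had 7 chains lower. In all, 15 chains were higher in each of the 7 clones: COL1A1, COL1A2, COL3A1, COL5A1, COL5A2, COL6A1, COL6A2, COL6A3, COL6A6, COL8A1, COL12A1, COL13A1, COL14A1, COL15A1 and COL18A1. Of these, COL1A2, COL3A1, COL5A1, COL6A3, COL6A6, COL8A1, COL12A1 and COL13A1 had passed the filter only through the clones. COL9A3 was the only chain lower in each of the 7 clones. Over all genes tested, 4.87% were higher in all clones and 4.20% lower in all.

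**Figure D1:**
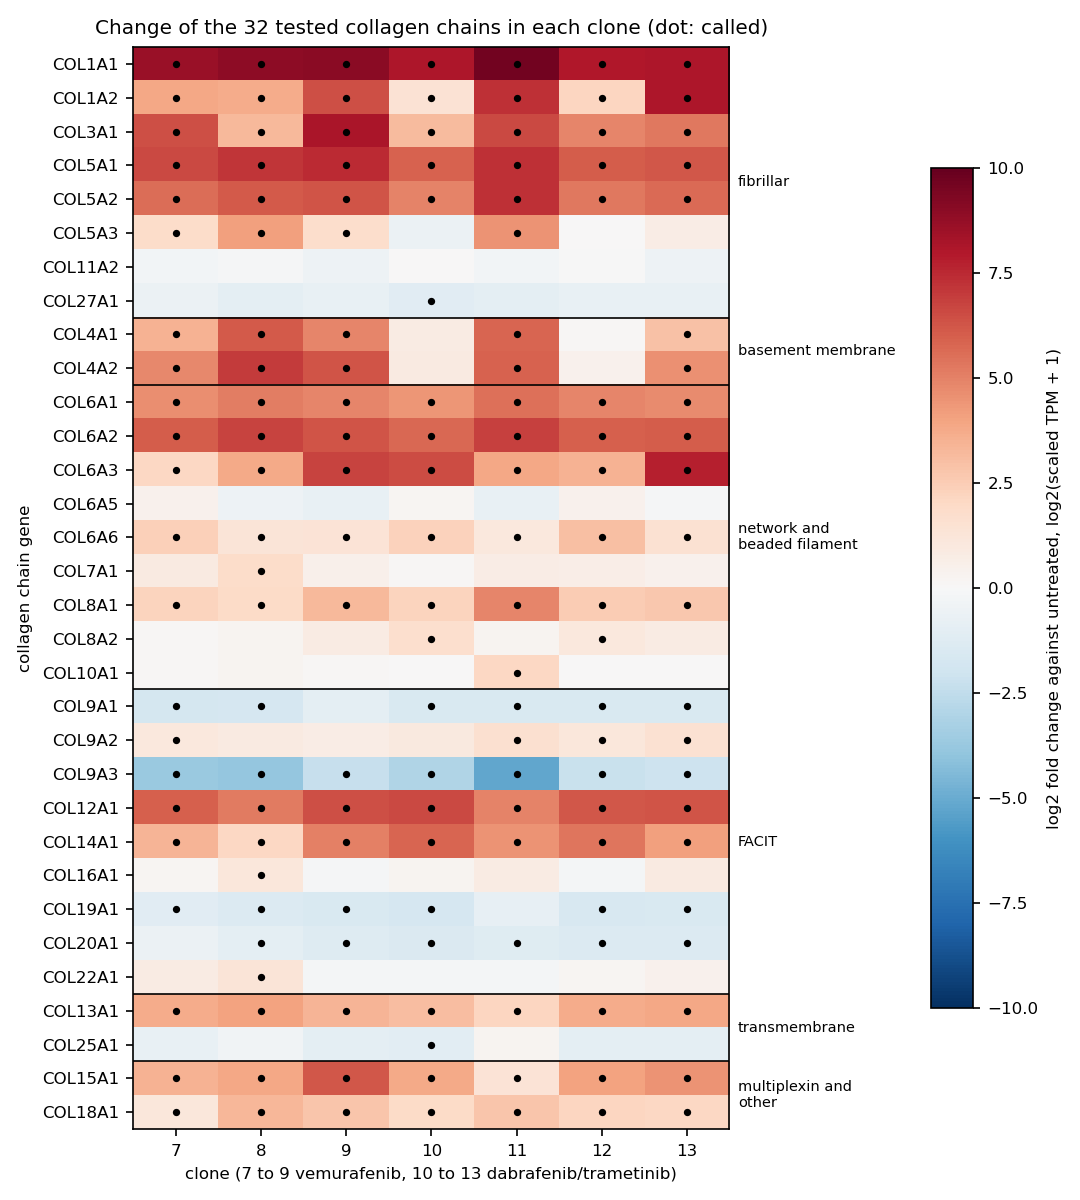
Log2 fold change of each of the 32 tested collagen chains (rows, grouped by class) in each clone against untreated cells (columns), with red for higher, blue for lower and a dot where the change was called. COL1A1, COL6A1 and COL6A2 are red in all 7 columns, COL4A1 and COL4A2 are pale in clones 10 and 12, and COL9A3 is blue throughout.

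The make-up of the collagen pool changed with its size. In untreated cells FACIT chains made up 40.7% ± 0.772 (SD, n = 3) of summed collagen TPM, network chains 33.3% ± 0.625 and fibrillar chains 20.1% ± 1.37. In the clones the FACIT share was 1.26% (clone 8) to 7.97% (clone 10), while the fibrillar share was 41.6% (clone 12) to 59.7% (clone 11). Just 3 genes held most of the pool in the clones. COL1A1 took 33.8% (clone 13) to 51.5% (clone 11) against 3.21% ± 0.873 in untreated cells. COL6A1 and COL6A2 together took 32.8% (clone 9) to 49.2% (clone 12) against 30.4% ± 0.532. All other chains shared 66.4% of the pool in untreated cells and 11.5% (clone 7) to 23.8% (clone 13) in the clones. These shares are of RNA that all comes from 1 library, so a rise of 1 chain lowers the share of the rest.

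**Figure D2:**
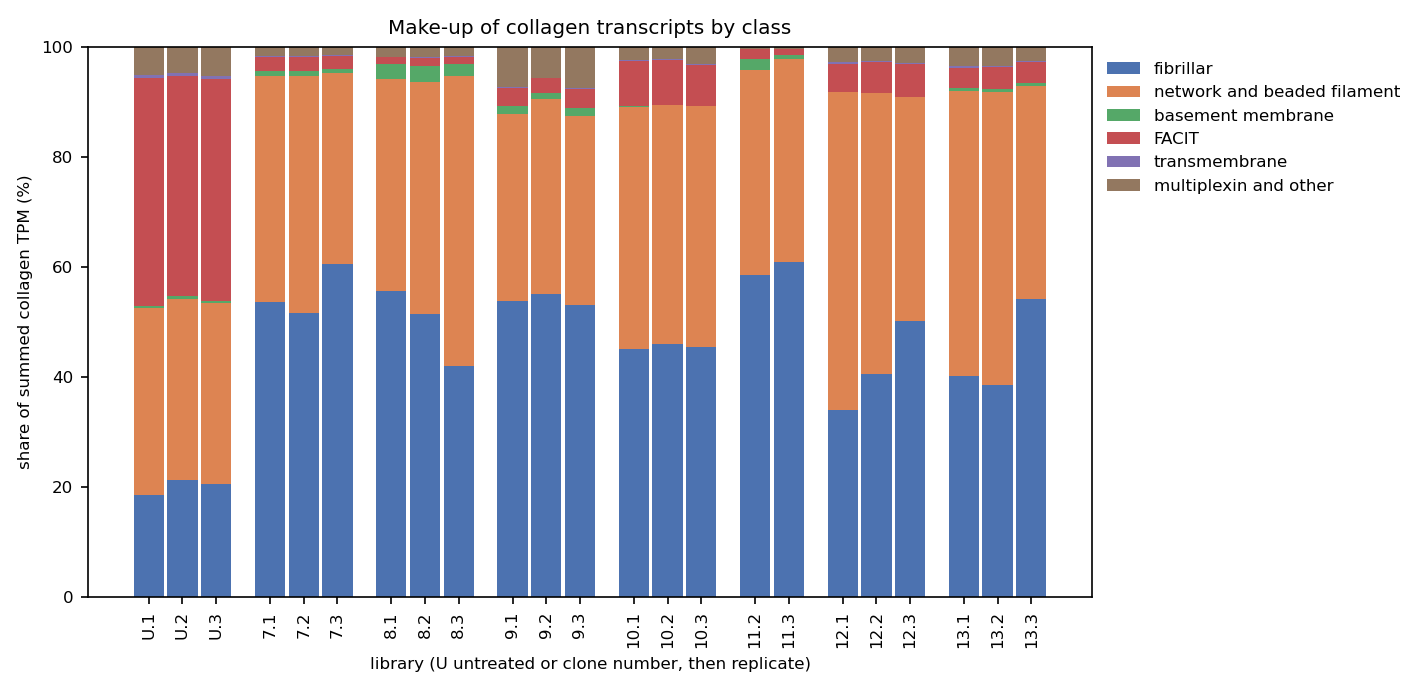
Share of summed collagen TPM (vertical axis, percent) held by each class of chain in each of the 23 libraries (horizontal axis, U for untreated, otherwise the clone number, then the replicate). FACIT chains hold 40.1% to 41.5% in the untreated libraries and at most 8.28% in any clone library.

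COL1A1 encodes the alpha1 chain of type I collagen, the main fibril of skin and bone, and had the highest level of all chains in each of the 7 clones. Its untreated libraries read 5.14, 8.80 and 5.92 scaled TPM. Clone 7 read 3059, 2557 and 3570, clone 8 4934, 4073 and 2682, clone 9 3929, 4326 and 3738, and clone 10 2050, 2133 and 2059. Clone 11 read 5368 and 6857, clone 12 1434, 1971 and 2633, and clone 13 1721, 1789 and 2690. All 20 clone libraries lay far above untreated, and the log2 fold change in the mean of the clones was 8.66 ± 0.19 (SE; limma adjusted p = 7e-18). Clones differed less from each other than from untreated, but their log2 range of 1.64 passed an F test among the 7 clones. COL1A1 differed in 4 of the 21 pairs of clones, 3 of them with clone 11 (over all genes, 6.16% of gene and pair combinations were called). No 2 neighbours in the order of levels differed past the call.

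COL1A2 encodes the alpha2 chain, which joins a pair of alpha1 chains in the usual type I molecule, and its pattern over clones was not that of its partner. Untreated libraries read 0.275, 0.395 and 0.246 scaled TPM. Clone 7 read 19.6, 15.9 and 17.7, clone 8 17.2, 15.3 and 16.6, clone 9 110, 128 and 106, and clone 10 6.84, 1.23 and 1.46. Clone 11 read 162 and 250, clone 12 2.59, 2.79 and 13.5, and clone 13 259, 315 and 525. Clones 10 and 12 stayed low, clones 9, 11 and 13 were high, and clones 7 and 8 lay between, with no overlap among these 3 levels. COL1A2 rose in every clone, by 8.07 ± 0.45 (SE) in clone 13 and 1.43 ± 0.45 in clone 10 (limma adjusted p = 0.013). The clone 10 call rests on replicate 1, which stands apart; without it the log2 fold change was 0.85 and the adjusted p 0.102. It differed in 17 of 21 pairs of clones, with called steps from clone 12 to clone 8 (1.57) and from clone 7 to clone 9 (2.62).

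The ratio of COL1A1 to COL1A2 shows the same within each library, free of any scaling. It was 21.7 ± 2.73 (SD, n = 3) in untreated cells, 30.2 ± 4.02 (n = 2) in clone 11 and 35.0 ± 1.00 in clone 9. It reached 172 ± 25.0 in clone 7, 238 ± 67.0 in clone 8, 485 ± 263 in clone 12 and 1148 ± 753 in clone 10. Clone 13 went the other way, at 5.82 ± 0.771. The wide SDs of clones 10 and 12 include clone 10 replicate 1 at 300.0 against 1736 at the highest, and clone 12 replicate 3 at 195 against 707.

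**Figure D3:**
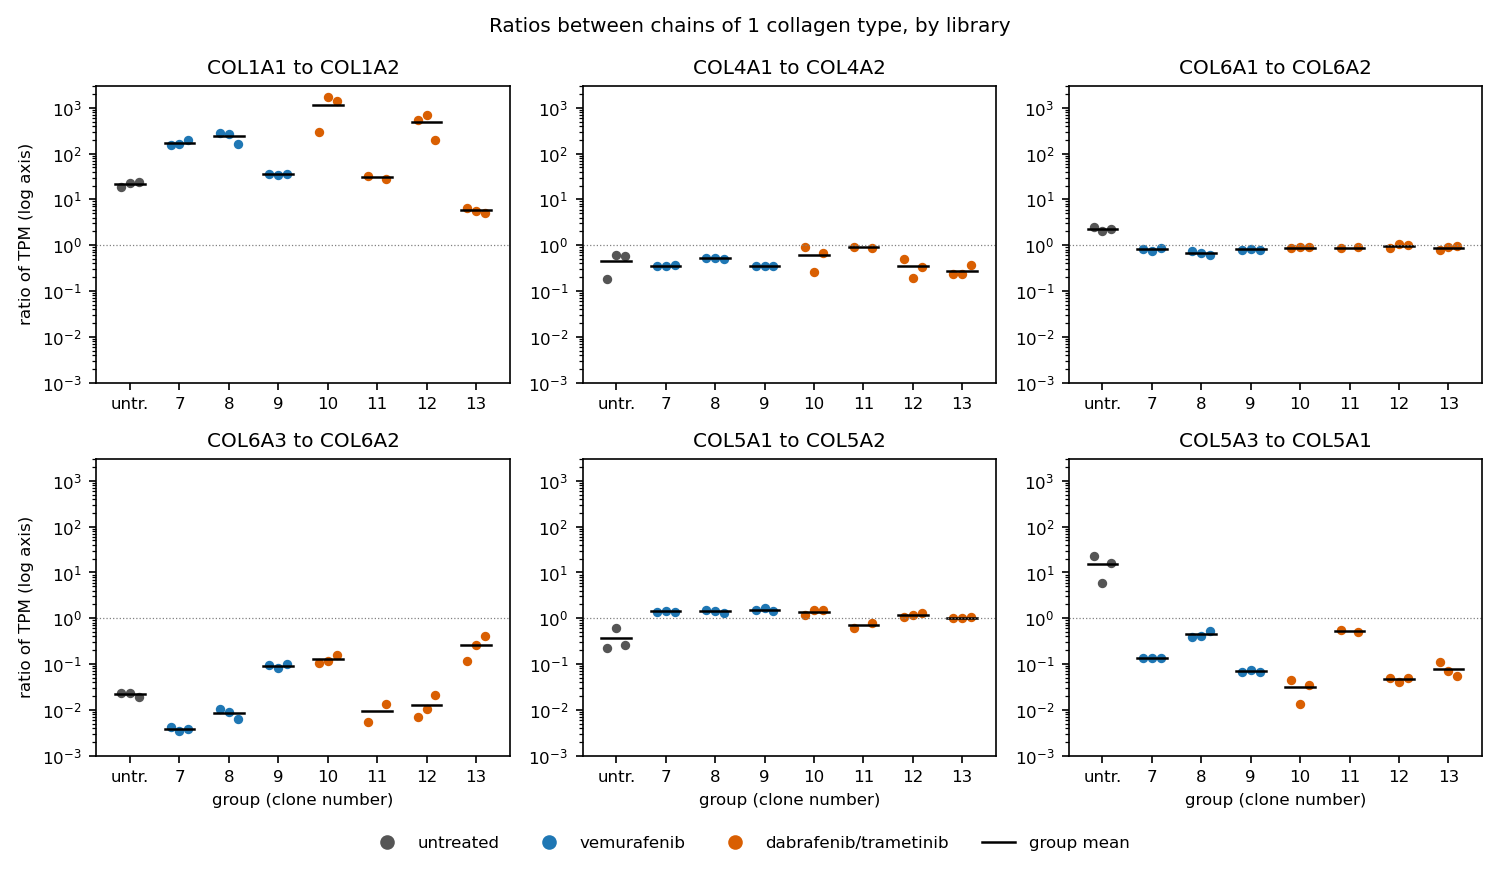
Ratio of TPM between 2 chains of 1 collagen type in each library (points; log axis), with group means as bars, for untreated cells and clones 7 to 13. COL1A1 to COL1A2 runs from 5.82 in clone 13 to 1148 in clone 10, whereas COL6A1 to COL6A2 keeps between 0.676 and 0.971 in the clones.

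COL3A1, the single chain of type III collagen, which forms fine fibrils beside type I, also rose in every clone. Untreated libraries read 0.0676, 0.237 and 0.307 scaled TPM. Clone 8 (11.6, 10.6 and 8.82) and clone 10 (20.1, 5.99 and 8.03) were lowest, clone 12 read 36.1, 25.5 and 40.9, and clone 13 32.1, 35.9 and 82.2. Clone 7 read 100.0, 97.3 and 107, clone 11 103 and 127, and clone 9 354, 343 and 346. Clone 9 was above every other library, and the lowest clone library was still well above untreated. The mean log2 fold change was 5.39 ± 0.25 (SE; limma adjusted p = 5.61e-13). COL3A1 differed in 18 of 21 pairs, more than any other chain, and its levels stepped from clone 10 to clone 12, from clone 13 to clone 7 and from clone 11 to clone 9.

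Type V collagen sits in the core of type I fibrils and sets their width. COL5A1, its alpha1 chain, read 0.169, 0.674 and 0.254 scaled TPM in untreated libraries. Clone 7 read 140, 118 and 128, clone 8 253, 230 and 120, clone 9 253, 210 and 244, and clone 10 67.4, 85.6 and 88. Clone 11 read 181 and 251, clone 12 81.3, 77.2 and 112, and clone 13 92.2, 98.7 and 106. COL5A2, the alpha2 chain, read 0.742, 1.11 and 0.984 in untreated libraries and was highest in clone 11, at 290 and 324. Clone 7 read 100, 81.8 and 91.3 for this chain, clone 8 166, 156 and 93.6, clone 9 167, 127 and 173, and clone 10 58.1, 57.4 and 57.9. Clone 12 held 75.6, 67.3 and 86.2 of it and clone 13 93, 98.5 and 100. No clone library of either gene overlapped with untreated. COL5A1 rose by 6.67 ± 0.17 (SE; limma adjusted p = 7.19e-17) and COL5A2 by 5.89 ± 0.13 (8.36e-18), and each differed in 8 of 21 pairs of clones. Their ratio was 0.364 ± 0.211 (SD, n = 3) in untreated cells, where both levels were low, and between 0.701 (clone 11) and 1.52 (clone 9) in the clones.

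COL5A3, the alpha3 chain of type V, behaved apart from both. Untreated libraries read 3.93, 4.04 and 4.18 scaled TPM, so it was the highest of the type V genes there. Clone 11 read 98.5 and 129, clone 8 99.7, 95.3 and 62.9, clone 7 18.7, 16.3 and 17.0, and clone 9 17.2, 15.7 and 16.3. Clone 13 read 10.0, 6.90 and 5.84, clone 12 4.04, 3.10 and 5.55, and clone 10 3.05, 1.16 and 3.07. It rose in clones 7, 8, 9 and 11, by 1.78 (clone 9) to 4.49 (clone 11), and was not called in clones 10 (-0.62), 12 (0.02) and 13 (0.74). The order stepped from clone 13 to clone 9 (1.05) and from clone 7 to clone 8 (2.22). The ratio of COL5A3 to COL5A1 was 15.2 ± 8.69 (SD, n = 3) in untreated cells and 0.0313 (clone 10) to 0.528 (clone 11) in the clones. The untreated ratio rests on a COL5A1 level of 0.169 to 0.674 and ran from 6.0 to 23.2 between libraries.

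COL27A1, a fibrillar chain best known from cartilage, was the only fibrillar chain at a high level in untreated cells, with 25.1, 26.9 and 27.3 scaled TPM. All 20 clone libraries were lower: clone 7 read 21.6, 15.2 and 16.8, clone 8 14.4, 12.9 and 12.3, clone 9 16.2, 16.3 and 15.1, clone 10 10.1, 14.6 and 10.9, clone 11 13.1 and 12.8, clone 12 15.9, 16.2 and 15.4, and clone 13 14.4, 16.4 and 15. The fall reached the call only in clone 10 (-1.11 ± 0.13 SE), and with values as deposited it was -0.82 there and not called. COL11A2 held 1.54 to 1.71 in untreated and 0.653 to 2.31 in clone libraries and was called in no clone. COL2A1, COL11A1 and COL24A1 were under the filter, with no library above 0.477.

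Of the 6 type IV chains, which build basement membranes, only COL4A1 and COL4A2 reached the filter. These genes encode the 2 chains of the most widespread type IV molecule and lie head to head on chromosome 13. In RefSeq on GRCh38.p14 their starts are 126 bases apart, at chr13:110307158-110307283, and this stretch is shown (plus strand, the strand of COL4A2) because 1 short sequence serves as the start region of both genes. Capitals mark a CCAAT box and a GC box (GGGCGG).

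COL4A1-COL4A2: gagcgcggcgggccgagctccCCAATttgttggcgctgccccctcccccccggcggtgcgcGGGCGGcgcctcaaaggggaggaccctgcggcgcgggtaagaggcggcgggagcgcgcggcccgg

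Searched on both strands in the 250 bases before the start, CCAAT occurred in 32% of 35116 RefSeq promoters and GGGCGG in 42.6%; of the 32 collagen genes with an entry, 11 and 21 held them. A match is a description of the letters only.

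COL4A1 read 0.0148, 0.156 and 0.102 scaled TPM in untreated libraries. Clone 8 read 95.3, 89.6 and 50.8, clone 11 102 and 37.3, clone 9 34.0, 27.3 and 33.1, clone 7 12.7, 10.6 and 11.0, and clone 13 5.04, 6.80 and 10.8. Clone 12 read 0.245, 0.0808 and 0.293, and clone 10 5.17, 0.0737 and 0.0937. Clones 7, 8, 9, 11 and 13 were clear of untreated, clone 12 overlapped with it, and in clone 10 a lone library was high. COL4A2 followed the same split, except that clone 12 lay just above untreated: 0.0808, 0.251 and 0.178 in untreated, 0.485, 0.418 and 0.861 in clone 12, and 5.67, 0.289 and 0.138 in clone 10. In the other 5 it read 179, 170 and 104 (clone 8), 110 and 42 (clone 11), 94.9, 78.8 and 92.3 (clone 9), 35.6, 30.9 and 29.5 (clone 7) and 21.2, 28.5 and 29.6 (clone 13). In clones 7, 8, 9, 11 and 13, COL4A1 rose by 2.91 ± 0.48 (SE, clone 13) to 6.14 ± 0.48 (clone 8) and COL4A2 by 4.54 ± 0.46 (clone 13) to 6.98 ± 0.46 (clone 8). In clone 10 neither was called (0.83, limma adjusted p = 0.16, and 0.87, 0.12), nor in clone 12 (0.14 and 0.43). For both genes the only called step in the order of clones was from clone 10 to clone 13, 2.08 for COL4A1 and 3.67 for COL4A2. The ratio of the 2 chains lay between 0.280 (clone 13) and 0.906 (clone 11). In untreated cells, in clone 12 and in clone 10 outside replicate 1, both chains were under 1 scaled TPM, so the ratio there rests on low levels.

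Clone 10 replicate 1 was the high library for COL4A1, COL4A2, COL1A2 and COL3A1 in its group, and its summed melanocyte markers stood at the top of that group too (399, against 75.1 at the lowest). That sum was also highest in replicate 1 of clone 12 (478, against 62.0 at the lowest), clone 13 (276, against 85.0) and clone 9 (69.6, against 60.8). In clones 7 and 8 it was highest in replicate 2, and in clone 11 in replicate 3. The smooth muscle markers also differed between clones. ACTA2, smooth muscle actin, read 10.6 to 12.7 scaled TPM in untreated cells, 4229 to 4464 in clone 11, 2796 to 3409 in clone 8, 1301 to 1557 in clone 7 and 453 to 516 in clone 9. It read 45.6 to 137 in clone 13, 21.2 to 67.6 in clone 12 and 9.22 to 89.1 in clone 10. The highest libraries of these groups were clone 13 replicate 1, clone 12 replicate 3 and clone 10 replicate 1. The sum of the 6 smooth muscle and pericyte markers was 397 to 436 in untreated and 106 (clone 12) to 4993 (clone 11) in clone libraries, of which MYH11, the smooth muscle myosin, never passed 1.59. Most of the untreated sum was MCAM, at 376 to 416, which was lower in the clones, with means of 61.8 (clone 9) to 254 (clone 11). The part of these genes in the type IV result was not tested.

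COL4A3, COL4A4 and COL4A6 were at 0.882 or less in every library and were not tested. COL4A5 was listed at 0 in all 3 untreated libraries and at 0.0537 or less elsewhere.

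Type VI collagen is a heterotrimer of alpha1, alpha2 and a longer chain, most often alpha3. COL6A1 read 45.1, 42.2 and 42.4 scaled TPM in untreated libraries. Clone 7 read 1190, 1028 and 1050, clone 8 1591, 1522 and 1389, clone 9 1285, 1436 and 1255, and clone 10 943, 957 and 935. Clone 11 read 1811 and 2265, clone 12 1284, 1388 and 1153, and clone 13 1183, 1353 and 1030. COL6A2 read 18.5, 20.8 and 19.1 in untreated libraries and was lowest in clone 10 too, at 1082, 1068 and 1042. For this chain clone 7 read 1441, 1378 and 1199, clone 8 2155, 2205 and 2322, clone 9 1604, 1722 and 1592, and clone 11 2091 and 2483. Clone 12 held 1497, 1313 and 1157 of it and clone 13 1507, 1502 and 1056. Both stood clear of untreated in all 20 clone libraries. They varied little between clones, though each narrowly passed the F test among clones (log2 range 1.10 each). COL6A1 rose by 4.88 ± 0.09 (SE; limma adjusted p = 9.15e-19) and COL6A2 by 6.24 ± 0.10 (1.64e-19). COL6A1 differed in 1 pair of clones (clone 11 above clone 10, 1.10) and COL6A2 in 2. Without clone 11 replicate 3 the range of COL6A1 was 0.94 and its call among clones was lost. The COL6A1 to COL6A2 ratio fell from 2.23 ± 0.207 (SD, n = 3) to 0.676 (clone 8) to 0.971 (clone 12).

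COL6A3 ran through the clones in a different order. It read 0.424, 0.475 and 0.360 scaled TPM in untreated libraries. Clone 7 read 5.91, 4.68 and 4.46, clone 12 10.3, 13.4 and 24, clone 8 22.3, 19.8 and 14.3, and clone 11 11.5 and 34.0. Clone 10 read 114, 126 and 162, clone 9 156, 139 and 156, and clone 13 174, 385 and 431. The first 4 clones and the last 3 did not overlap, and no clone library reached down to untreated. COL6A3 rose by 2.08 ± 0.35 (SE, clone 7) to 7.76 ± 0.35 (clone 13) and differed in 16 of 21 pairs, with called steps from clone 7 to clone 12 (1.41) and clone 11 to clone 10 (2.67). Clone 10 was among the highest for COL6A3 and the lowest for COL1A2. The COL6A3 to COL6A2 ratio ran from 0.00374 in clone 7 to 0.260 in clone 13, against 0.0216 ± 0.00231 in untreated cells.

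The bases before the starts of COL6A2 and COL6A3 are shown because these partners diverged between clones. They come from RefSeq on GRCh38.p14, COL6A2 at chr21:46097992-46098111 (plus strand) and COL6A3 at chr2:237414165-237414284 (minus strand), each read toward its gene. Capitals mark GC boxes (GGGCGG) and a TATA box (TATAAA).

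COL6A2: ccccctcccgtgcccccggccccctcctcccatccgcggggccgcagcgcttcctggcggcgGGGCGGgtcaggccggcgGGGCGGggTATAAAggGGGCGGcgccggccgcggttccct

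COL6A3: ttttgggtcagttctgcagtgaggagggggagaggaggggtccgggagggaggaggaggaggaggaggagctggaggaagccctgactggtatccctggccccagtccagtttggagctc

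The COL6A2 stretch held 3 GC boxes and 1 TATA box on its own strand, and the COL6A3 stretch held none of the motifs searched. TATAAA occurred in the 250 bases before the start in 10.7% of RefSeq promoters and in 7 of the 32 collagen entries. The stretches shown are shorter, at 120 bases each. Here too a match describes the letters only, and the part of these motifs in the levels was not tested.

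**Figure D4:**
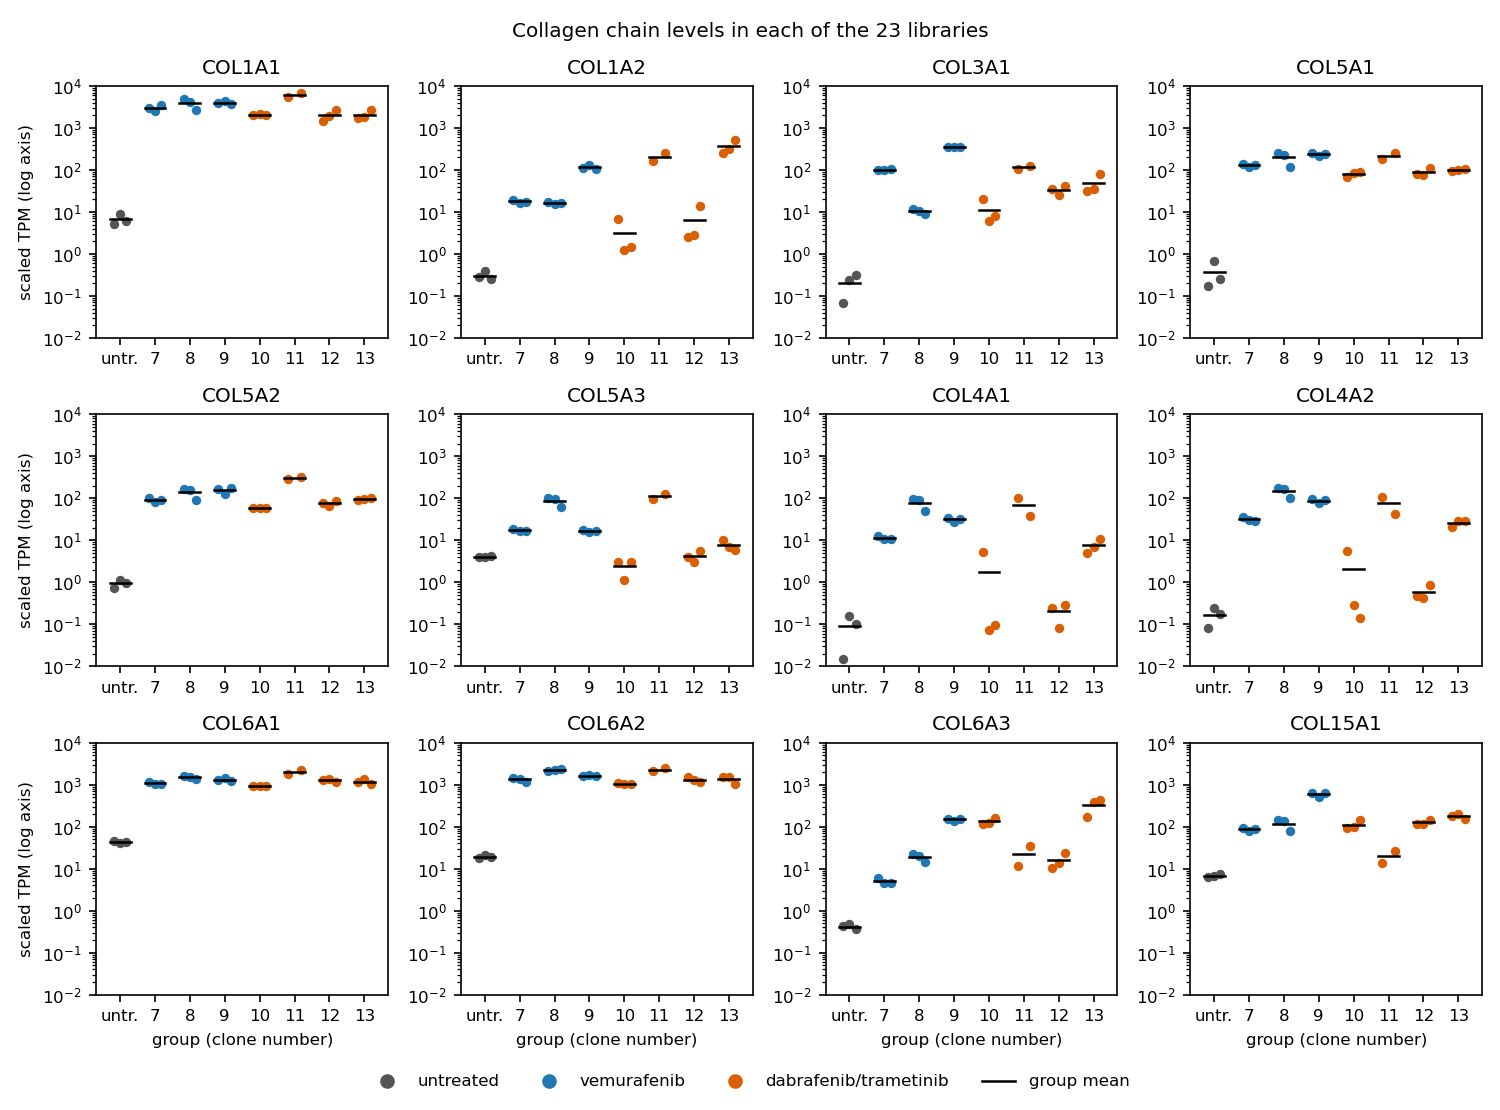
Level of 12 collagen chains in each of the 23 libraries (points; scaled TPM, log axis) with group means as bars, by group on the horizontal axis and coloured by drug. COL1A1, COL5A1, COL5A2, COL6A1 and COL6A2 each vary by less than 1 power of 10 across the clones. COL1A2, COL3A1, COL4A1, COL4A2, COL5A3, COL6A3 and COL15A1 spread over 1 or more powers of 10.

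Among the other network and filament chains, COL8A1, a short chain of vessel wall and corneal networks, read 0.325, 0.229 and 0.249 scaled TPM in untreated libraries. Clone 7 read 5.2, 4.64 and 4.76, clone 8 3.59, 4.37 and 3.14, clone 9 11, 10 and 11.5, and clone 10 4.23, 5.16 and 5.76. Clone 11 read 42.5 and 30.5, clone 12 6.37, 5.22 and 8.27, and clone 13 8.25, 8.23 and 5.99. It rose in each clone by 1.88 (clone 8) to 4.87 (clone 11), and clone 11 stood above the next, clone 9, by 1.65. COL6A6 rose in each clone from at most 0.0112 in untreated libraries to 1.02 to 8.58, highest in clone 12. COL6A5 was called in no clone, with 0.886 to 1.08 in untreated and 0.12 to 1.99 in clone libraries. COL8A2 was higher in clones 10 (1.67) and 12 (1.09), the latter lost without clone 12 replicate 3. COL10A1, the chain of growth-plate cartilage, was higher only in clone 11, at 2.15 and 4.94 against 0.459 or less in all other libraries. COL7A1, which anchors the epidermal basement membrane to the dermis, was called only in clone 8 (1.85), where replicate 3 read 33.7 against 15.1 and 10.4.

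FACIT chains split into those that rose and those that fell. COL12A1, which bridges fibrils in tendon and skin, read 0.364, 0.424 and 0.470 scaled TPM in untreated libraries. Clone 7 read 96.1, 83.1 and 92.1, clone 8 59.6, 53.9 and 38.6, clone 9 130, 111 and 127, and clone 10 132, 147 and 142. Clone 11 read 48.3 and 37.3, clone 12 86.2, 99.4 and 132, and clone 13 99, 126 and 109. It rose by 5.96 ± 0.12 (SE; limma adjusted p = 3.62e-18). COL14A1, found on mature fibrils, read 2.69, 3.13 and 3.36 in untreated libraries. Its levels were 45.2, 37.8 and 41 (clone 7), 19.9, 18.5 and 10.8 (clone 8), 140, 108 and 143 (clone 9) and 236, 238 and 196 (clone 10). Clone 11 held 111 and 70.5 of it, clone 12 134, 170 and 183, and clone 13 56, 68 and 85.5. Clone 10 was highest for both genes and clone 8 or clone 11 lowest. COL14A1 rose by 4.30 ± 0.16 (SE) and differed in 13 of 21 pairs; the step from clone 8 to clone 7 was 1.32.

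COL9A3 is 1 of the 3 chains of type IX collagen, a cartilage FACIT. Its untreated libraries read 59.5, 56.4 and 55.5 scaled TPM, the highest of all 44 chains there. Clone 7 read 4.74, 3.06 and 2.93, clone 8 2.33, 2.94 and 3.6, clone 9 10.7, 12.2 and 10.3, and clone 10 16.7, 2.74 and 4.6. Clone 11 read 0.478 and 0.795, clone 12 10.6, 11.7 and 12.7, and clone 13 11.1, 12.7 and 15.3. Clone 10 replicate 1 was the highest clone library, far above the rest of its group. No clone library overlapped with untreated. It fell by 3.18 on the log2 scale (SE 0.26; limma adjusted p = 4.46e-09), by 2.06 in clone 13 to 5.16 in clone 11. Its partner chains did not move alike: COL9A1 fell in 6 clones from 2.31 to 2.90 in untreated libraries to 0.535 or less, whereas COL9A2 rose in clones 7, 11, 12 and 13 from 1.25 to 1.40 to between 3.5 and 7.82. COL19A1 (2.29 to 3.89 in untreated) and COL20A1 (1.66 to 2.06) fell in 6 clones each. COL20A1 in clone 8 and COL19A1 in clone 7 were close to the call and lost it without an untreated library.

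COL16A1 read 14.3, 14.2 and 14 in untreated libraries. Clone 7 read 17.9, 15.7 and 15.8, clone 8 31.8, 35.1 and 30.4, clone 9 14, 13.1 and 12.5, and clone 10 14.9, 14.9 and 21.9. Clone 11 read 25.2 and 27.7, clone 12 10.1, 9.72 and 17.3, and clone 13 35, 22.9 and 24.7. It was called only in clone 8 (1.14 ± 0.19 SE). COL22A1, which had passed the filter only through the clones, was called only in clone 8 (1.28), at 1.78 to 1.88 against 0.262 or less in untreated libraries. Clone 7 (1.12, 1.09 and 1.05) and clone 13 (0.627, 0.933 and 0.266) also lay above untreated, short of the call. Clone 12 read 0.327, 0.473 and 0.151, and clones 9, 10 and 11 were at 0.0698 or less. COL21A1 was listed at 0 in all untreated libraries and was at most 0.552, in clone 10 replicate 1.

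The multiplexins, whose C-terminal fragments include the angiogenesis inhibitor endostatin in COL18A1, rose in each clone. COL15A1 read 6.52, 6.81 and 7.4 scaled TPM in untreated libraries. Clone 11 read 13.6 and 26.5, while clone 9 read 631, 499 and 639. Clone 7 read 95.8, 79.5 and 89.9, clone 8 145, 134 and 78, clone 10 95.5, 99.8 and 142, clone 12 115, 118 and 149, and clone 13 184, 198 and 150. It rose by 1.34 ± 0.26 (SE, clone 11) to 6.21 ± 0.23 (clone 9), with called steps from clone 11 to clone 7 (2.16) and from clone 13 to clone 9 (1.73). Without clone 11 replicate 3 the clone 11 change was 0.88 and not called. COL18A1 read 2.26, 2.3 and 2.19 in untreated libraries. Clone 7 read 6.17, 5.83 and 6.13, clone 8 28.6, 29.9 and 37, clone 9 22, 20.6 and 20.9, and clone 10 12.7, 9.94 and 10.5. Clone 11 read 22.9 and 20.1, clone 12 15.6, 13.5 and 12.1, and clone 13 9.49, 12.1 and 17.6. Clone 7 was lowest and clone 8 highest, and the mean rise was 2.30 ± 0.12 (SE).

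COL13A1, a transmembrane collagen of cell adhesion sites, went from at most 0.0291 to between 3.40 and 17.8 and rose in each clone, by 3.42 ± 0.14 (SE) in their mean. COL25A1, a chain of neurons, was at 1.03 to 1.28 in untreated libraries and called lower only in clone 10 (-1.08), where its mean was 0.00801. The fall was not particular to that clone, as 18 of 20 clone libraries lay below untreated. Means were 0.0632 in clone 13, 0.0918 in clone 9, 0.0932 in clone 12, 0.254 in clone 7 and 0.706 in clone 8. Clone 11, at 1.61, was above untreated. COL17A1 and COL23A1, the other transmembrane chains, and COL26A1 and COL28A1 were not tested. COL17A1, the hemidesmosome collagen, reached at most 1.07, in clone 8.

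Most chains differed between the clones. By an F test of the 7 clone means with a range of at least 1, 26 of the 32 chains differed among clones, against 25.3% of all genes tested. COL11A2, COL27A1, COL9A1, COL9A2, COL19A1 and COL20A1 did not pass. The range was widest for COL1A2 (6.65), COL4A2 (6.55), COL4A1 (6.00), COL6A3 (5.69) and COL5A3 (5.11). Within 1 collagen type, the range of 1 chain could be several times that of its partner, 6.65 for COL1A2 and 1.64 for COL1A1, or 5.69 for COL6A3 and 1.10 for COL6A1 and COL6A2. Between the drug arms no chain was called. With the clone as the unit (4 dabrafenib/trametinib clones against 3 vemurafenib clones), limma called 0 of 32 chains, 0 had an unadjusted p under 0.05, and the smallest adjusted p was 0.346. Over all genes 0.00% were called higher and 0.0192% lower. With libraries as the unit, which treats replicates of 1 clone as independent, COL14A1 (1.44) and COL6A3 (1.23) were higher and COL4A2 (-3.09), COL4A1 (-2.41), COL5A3 (-1.41) and COL15A1 (-1.11) lower in dabrafenib/trametinib clones, against 1.41% of all genes higher and 1.36% lower.

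Genes that fold, process, bind or cleave collagens, and genes of TGF-beta signalling, were taken from lists of known function. Each count is for the averaged clones against untreated cells, where 10.9% of all genes tested were higher and 7.92% lower. Members under 1 TPM in every untreated library passed the filter only through the clones, so their number is given beside each count. A procollagen chain is hydroxylated and folded in the endoplasmic reticulum, where HSP47 (SERPINH1) binds the finished helix. Of 20 folding and modification genes, 10 rose and 1 fell (median 0.99), against 10.9% and 7.92% of all genes, so the share that fell was under the background. None of the 10 had passed only through the clones. SERPINH1 was 57.9 ± 0.789 (SD, n = 3) scaled TPM in untreated cells and 203 (clone 7) to 488 (clone 9) in the clones, a rise of 2.52 ± 0.19 (SE). The lysyl hydroxylase PLOD2 rose from 10.3 ± 1.10 to 78.1 to 172, a change of 3.43, and the prolyl hydroxylase subunit P4HA2 by 3.01. SPARC, which binds collagen on its way out of the cell, rose from 576 ± 35.8 to between 1441 (clone 10) and 12726 (clone 11), and the prolyl 3-hydroxylase LEPREL2 rose by 1.80. COLGALT2, a collagen galactosyltransferase, fell by 1.89.

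Of 12 tested secretion and processing genes 7 rose and none fell, against 10.9% and 7.92% of all genes, and 3 of the 7 (CREB3L1, ADAMTS2 and ADAMTS14) had passed only through the clones. CREB3L1, a transcription factor that drives the secretory machinery for collagen, rose by 3.59, PCOLCE, the enhancer of procollagen C-proteinase, by 3.47, and the coat protein SEC24D, needed for large cargo, by 2.14. ADAMTS2 and ADAMTS14, which cut the N-propeptide, rose by 2.07 and 1.5 in the mean, each called in 5 clones. ADAMTS2 was 0.464 in clone 10 and 37.9 in clone 11.

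Of 5 tested cross-linking genes 5 rose, against 10.9% of all genes, but LOXL1 and PXDN had passed only through the clones. LOXL2, a lysyl oxidase, went from 3.19 ± 0.255 scaled TPM to 195 (clone 8) to 816 (clone 11), a rise of 6.34 ± 0.20 (SE). TGM2, a transglutaminase, rose by 3.75, and PXDN, the peroxidasin that cross-links type IV, by 1.62, called in 4 clones. LOXL1 and LOXL3 rose by 1.43 and 1.27. LOX itself was not tested, with no library above 0.521.

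Among 15 tested collagen-binding matrix proteins 13 rose and none fell (median 2.15), against 10.9% and 7.92% of all genes, and 4 of the 13 had passed only through the clones. The proteoglycan BGN rose by 7.10 ± 0.09 (SE), from 5.48 ± 0.189 to between 403 (clone 7) and 1798 (clone 9). CCDC80 rose by 6.59, THBS1 by 6.19 and the fibrillin FBN1 by 4.21, of which CCDC80 and FBN1 had passed only through the clones. Fibronectin (FN1), on which cells lay down collagen fibrils, rose by 4.55, with 240 ± 15.3 in untreated cells, 1321 in clone 10 and 12735 in clone 8.

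Basement membrane partners of type IV rose in 9 of 16 tested genes and fell in 1, against 10.9% and 7.92% of all genes, so the share that fell was near the background. Of the 9, 2 had passed only through the clones. The laminin chains LAMA5 (3.18), LAMB3 (2.19) and LAMC1 (1.85) and the nidogen NID2 (2.41) rose, and FREM1, a dermal-epidermal matrix protein, fell by 2.05. FREM1 had passed the filter only through the untreated libraries, with a mean of 3.26 there and at most 0.0507 in any clone. In clones 10 and 12, where type IV was not called, LAMC1 stood at 151 and 147 against 49 ± 2.32 in untreated cells, and LAMB3 at 6.14 and 10.9 against 4.28 ± 0.778.

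Receptors for collagen changed both ways: of 14 tested, 6 rose and 4 fell, against 10.9% and 7.92% of all genes. Of the 6, 3 (ITGA11, ITGA1 and MRC2) had passed only through the clones. ITGA11, the integrin chain for fibrillar collagen, rose by 6.67 ± 0.21 (SE), from 0.265 ± 0.143 to between 41.6 (clone 10) and 212 (clone 9). Its partner ITGB1 rose by 2.24, ITGA1, the integrin chain that prefers type IV, by 2.95, and the endocytic receptor MRC2 by 4.58. The adhesion receptors GPR56 and GPR126, which bind type III and type IV collagen, fell by 3.67 and 2.92. Of these, GPR126 had passed the filter only through the untreated libraries, with a mean of 7.19 there and at most 0.245 in any clone. The discoidin receptor kinases DDR1 (0.04) and DDR2 (0.06) were not called in the mean of the clones.

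Of 14 tested proteases and inhibitors 7 rose and 1 fell, against 10.9% and 7.92% of all genes, so the share that fell was near the background. Of the 7, 2, FAP among them, had passed only through the clones. MMP2, a gelatinase, went from 19.7 ± 1.51 scaled TPM to 319 (clone 8) to 2465 (clone 13), a rise of 5.93 ± 0.18 (SE). The collagenase MMP1 rose by 3.99 ± 0.50, with clone means from 31.4 (clone 8) to 698 (clone 13), and FAP, a protease of activated fibroblasts, by 6.22. RECK, an inhibitor of MMPs, rose by 2.13, and the neutrophil collagenase MMP8 fell by 3.46. MMP14, which cuts type I collagen at the cell surface, was not called (0.36; 328 ± 2.83 in untreated cells and 347 to 497 in the clones).

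TGF-beta is the best-known inducer of collagen transcription. Of 17 genes on the list of its ligands, receptors and targets, 11 rose and 1 fell (median 1.45), against 10.9% and 7.92% of all genes, so the share that fell was near the background. Of the 11, 3 (TGFBI, LTBP1 and LTBP2) had passed only through the clones. TGFB1 rose by 2.27 ± 0.08 (SE), from 18.5 ± 0.94 to between 71.1 (clone 7) and 142 (clone 9). TGFB2 rose by 1.41, called in 4 clones, and was lowest in clone 7 (3.17) and highest in clone 10 (26.4). The target genes TGFBI (2.91) and CTGF (2.61) rose, as did the latent TGF-beta binding proteins LTBP1 (5.38) and LTBP2 (2.68).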

How the data were processed

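Poly(A) RNA of 23 libraries was sequenced with paired ends after samples had been put in random order, per the labels' protocols. Per the submitters' processing notes, kallisto was used with hg19; no version is given. The deposited table was read as TPM because each column sums to 1000000, although it is named as counts; TPM keeps no depth, so depth is unknown, no counting interval is given, and the spread between libraries is the error. TPM was divided here by factors of 0.747 to 1.15 from a trimmed mean of log ratios (30% and 5% trims, 10822 genes at 1 TPM or more in every library). Over all genes, the averaged clones had a median change against untreated of -0.01 (log2) when scaled, and 0.14 as deposited.

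Genes at 1 TPM or more in at least 2 libraries (15657) entered 1 fit of 8 groups in limma 3.58.1 under R 4.3.3 (lmFit, then eBayes with trend; 15 residual degrees of freedom) on log2(scaled TPM + 1), after a test on simulated data. Contrasts were each clone and the mean of the clones against untreated, 21 pairs of clones, and an F test of 6 degrees of freedom among clones. For drug arms the 7 clone means were the unit.

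The members, the gene lists, the choice of tests and the rule for named genes were set with earlier results of these data known, so no count over a list is independent support. Chains with a group mean of 20 scaled TPM or more are given by library, and from each partner list up to 5 called genes with the largest change and genes with a role of their own; 1 gene named by this rule is not reported here. Alternatives changed the pseudocount, scaling, filter, replicate block and the libraries used. Promoter sequences are from RefSeq, GRCh38.p14, where 32 of 44 genes had an entry; no protein sequence was used here.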

Additional observations from a re-analysis of the deposited data

Results flagged for a closer look

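The change against untreated cells differed between clones for 26 chains, by the F test of equality of the 7 clone means (limma, adjusted p under 0.05 and a log2 range of 1 or more; 25.3% of all genes tested passed it). The range between the lowest and highest clone was 6.65 for COL1A2, 6.55 for COL4A2, 6.00 for COL4A1, 5.69 for COL6A3 and 5.11 for COL5A3. It was 4.99 for COL3A1, 4.87 for COL15A1, 3.73 for COL14A1, 3.09 for COL9A3, 2.99 for COL8A1 and 2.39 for COL5A2. COL18A1 ranged over 2.21, COL10A1 over 2.03, COL6A6 over 1.99, COL13A1 over 1.82, COL7A1 over 1.72 and COL12A1 over 1.70. For COL1A1 the range was 1.64, for COL5A1 and COL8A2 1.54, for COL22A1 1.51, and for COL16A1 and COL25A1 1.36. COL6A5 (1.18), COL6A1 (1.10) and COL6A2 (1.10) passed narrowly.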

How the results depend on the processing

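With a pseudocount of 0.1, the chains called lower were 5 in clone 7, 7 in clone 9 and 6 in clone 11. With a filter of 5 TPM, which tests fewer genes, 1 chain was lower in each of clones 7, 8, 9, 11, 12 and 13 and in the mean of the clones, and 2 in clone 10. With libraries as the unit, 2 chains were higher and 4 lower between the arms. The counts of chains higher and the count that differed among clones stayed within 1.5 times the reported number under every alternative run. As deposited, 2515 of all genes were higher and 1173 lower in clone 10 (1845 and 1653 scaled), and 2484 and 1036 in clone 11 (1803 and 1514 scaled). Collagen chains in clone 10 were then 17 higher and 4 lower, and COL20A1 in clone 8 (-0.95), COL25A1 in clone 10 (-0.996) and COL27A1 in clone 10 (-0.82) missed the call. A pseudocount of 0.1 brought COL10A1 (1.04), COL8A2 (2.04) and COL25A1 (-1.99) past it in the mean of the clones.

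Leaving out each library in turn gave 5054 values for 220 single chain results, of which 5046 kept their direction and their side of the call, 8 missed the call and 0 reversed. Those 8 were COL20A1 in clone 8 without untreated replicate 1 (-0.96) or clone 8 replicate 1 (-0.94), COL19A1 in clone 7 without untreated replicate 2 (-0.99), COL9A2 in clone 7 without clone 7 replicate 1 (0.98), COL1A2 in clone 10 without clone 10 replicate 1 (0.85), COL15A1 in clone 11 (0.88) and the range of COL6A1 (0.94) without clone 11 replicate 3, and COL8A2 in clone 12 without clone 12 replicate 3 (0.93). Where this left clone 11 with 1 library, that library was assumed to vary like the other groups. COL10A1 reached 1 TPM only in the 2 libraries of clone 11. Without either of them it fell under the filter and was not tested, so its results, the clone 11 call among them, were not checked there. Leaving out clone 8 replicate 3, clone 10 replicate 1 and clone 12 replicate 3 together, an alternative chosen after seeing the data, ended the calls of COL1A2 in clone 10 (0.85) and COL8A2 in clone 12 (0.94).

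With the replicate number as a block, 19 chains were higher and 4 lower against untreated in the averaged clones, and 26 differed among clones, the same counts as without it, and the block ended no single chain's call. Over the whole series the numbers are not shown to pair the samples. Of 77 pairs of libraries with the same number, 28 had deviations correlated over 0.1 (r from -0.622 to 0.418, median 0.0138). Of 23 libraries, 12 were closest to one with their own number, and the share due by chance was not worked out. From replicate 1 to 2 to 3, summed melanocyte markers fell in clone 10 (399, 120 and 75.1) and clone 12 (478, 320 and 62.0). They fell likewise in clone 13 (276, 122 and 85.0) and clone 9 (69.6, 62.1 and 60.8), but not in clones 7, 8 and 11. COL6A3 rose at each step in clones 10 to 13 but not in clones 7 to 9. The source of these shared orders was not tested.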
